A study of Mus musculus with 96 samples.

Results

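The synaptic vesicle and release genes are 38 genes whose products coat, dock, fuse and recycle synaptic vesicles. Their members were found by gene symbol: each consensus peak of the 6 tables (H3K4me3, H3K27me3 or Suz12, in NeuN+ or NeuN- nuclei) that was annotated to one of the 38 symbols counted as a member peak. This gave 59 member peaks of 22815 peaks in all, at 37 of the 38 genes. Syt11 had no annotated peak in any table. The tables come from chromatin immunoprecipitation and sequencing of hippocampal nuclei of 6-month-old male C57BL/6N mice, sorted on NeuN, a neuronal nuclear protein. Each table held 12 libraries, 3 from wild-type mice (WT), 3 from Mutyh-/-, 3 from Ogg1-/- and 3 from the double knockout Mutyh-/-xOgg1-/- (DKO). Mutyh and Ogg1 encode DNA glycosylases that start the repair of oxidised guanine and its mispairs. The mice had received no treatment named in the labels, and each library pooled nuclei of several animals of one genotype, so p-values measure the spread between pools. The NeuN- fraction was not sorted further and holds several cell types.

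Release from a presynaptic terminal depends on a small set of machines. Vesicle proteins such as synapsins, synaptophysin, SV2 and the synaptotagmins coat the vesicle and sense calcium. SNARE proteins (Vamp, Stx1a and Snap25) pull the membranes together under the control of complexins and tomosyn (Stxbp5), and Nsf with its adaptors takes the complex apart again. Bassoon, Piccolo, RIMs and Munc13s organise the active zone, Rab3 and rabphilin act at docking, and dynamin, endophilin, amphiphysin, synaptojanin and AP180 retrieve the membrane. H3K4me3 marks the starts of genes that are active or poised. H3K27me3 is laid down by Polycomb repressive complex 2 (PRC2), of which Suz12 is a core subunit, and marks silenced genes, often at promoters rich in CG dinucleotides.

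The sequences just before the starts of 4 members are shown because they span the range of CG content over which the marks differed. The bases come from RefSeq promoters on GRCm38.p6, which matched 31 of the 38 symbols, and stop before any exon of the gencode annotation. Each reads from 5′ to 3′ on the strand of the gene, and capitals mark CG.
Syt2 (chr1:134646362-134646611, plus strand): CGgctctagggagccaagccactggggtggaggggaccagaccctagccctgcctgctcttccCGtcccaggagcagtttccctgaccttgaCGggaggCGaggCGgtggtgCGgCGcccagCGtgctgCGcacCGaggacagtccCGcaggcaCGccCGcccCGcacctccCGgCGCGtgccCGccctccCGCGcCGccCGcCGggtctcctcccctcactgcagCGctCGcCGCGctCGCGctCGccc
Stxbp5 (chr10:9901080-9901290, minus strand): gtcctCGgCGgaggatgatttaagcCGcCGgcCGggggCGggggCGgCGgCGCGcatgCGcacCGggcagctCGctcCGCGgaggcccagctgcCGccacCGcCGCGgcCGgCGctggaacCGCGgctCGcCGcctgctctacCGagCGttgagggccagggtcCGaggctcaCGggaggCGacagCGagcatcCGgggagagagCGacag
Sv2c (chr13:96132578-96132827, minus strand): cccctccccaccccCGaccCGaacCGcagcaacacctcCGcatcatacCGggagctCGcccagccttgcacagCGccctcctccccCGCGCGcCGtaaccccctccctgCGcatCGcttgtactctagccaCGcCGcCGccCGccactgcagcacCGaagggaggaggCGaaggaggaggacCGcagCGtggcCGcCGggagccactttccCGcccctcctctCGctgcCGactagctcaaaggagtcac
Rph3a (chr5:121008543-121008734, minus strand): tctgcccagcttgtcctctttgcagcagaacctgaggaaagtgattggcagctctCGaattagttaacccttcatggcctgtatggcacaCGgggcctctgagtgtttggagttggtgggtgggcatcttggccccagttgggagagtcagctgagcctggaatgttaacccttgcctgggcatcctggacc
The Syt2 stretch of 250 bases holds 30 CG dinucleotides, the Stxbp5 stretch of 211 bases 33, the Sv2c stretch of 250 bases 26 and the Rph3a stretch of 192 bases 2. At these promoters, Syt2 carried H3K4me3, H3K27me3 and Suz12 in NeuN+ nuclei, Stxbp5 carried H3K4me3 in both fractions, Sv2c carried H3K4me3 in NeuN+ and H3K27me3 in NeuN- nuclei, and Rph3a had the lowest H3K4me3 level of the member promoters.

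Values are normalised reads, that is, the reads of a peak over a scaling factor that the authors set per library. Peaks are counting windows of equal length, so levels of different peaks within a table are levels per equal length, but tables were scaled separately and levels were not compared between them. Reads in peaks per library ranged from 96023 (DKO replicate 1) to 548706 (Ogg1-/- replicate 3) in H3K4me3 NeuN+ and from 6652 to 120004 in the other 5 tables. A library's median peak held 7 to 43 reads in H3K4me3 NeuN+ and 1 to 17 in the other tables. The sort was checked against marker lists: all 6 neuronal markers had an H3K4me3 peak in NeuN+ and 0 of 6 in NeuN- nuclei. Glial markers were sparse in H3K4me3 NeuN-, where Slc1a2 (1 of 6 astrocyte markers), Olig1 (1 of 9 of the oligodendrocyte lineage) and 0 of 6 microglial markers had a peak.

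H3K4me3 was found in neurons at all members but Syt11, and H3K27me3 or Suz12 at few of them. In NeuN+ nuclei, 43 of 12628 H3K4me3 peaks belonged to members, at 37 genes. A single member peak was found among 4132 H3K27me3 peaks and a single one among 775 Suz12 peaks of NeuN+ nuclei, both at Syt2. In NeuN- nuclei, 9 of 3270 H3K4me3 peaks (8 genes) and 5 of 1698 H3K27me3 peaks (4 genes) were member peaks, and 0 of 312 Suz12 peaks.

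**Figure D1:**
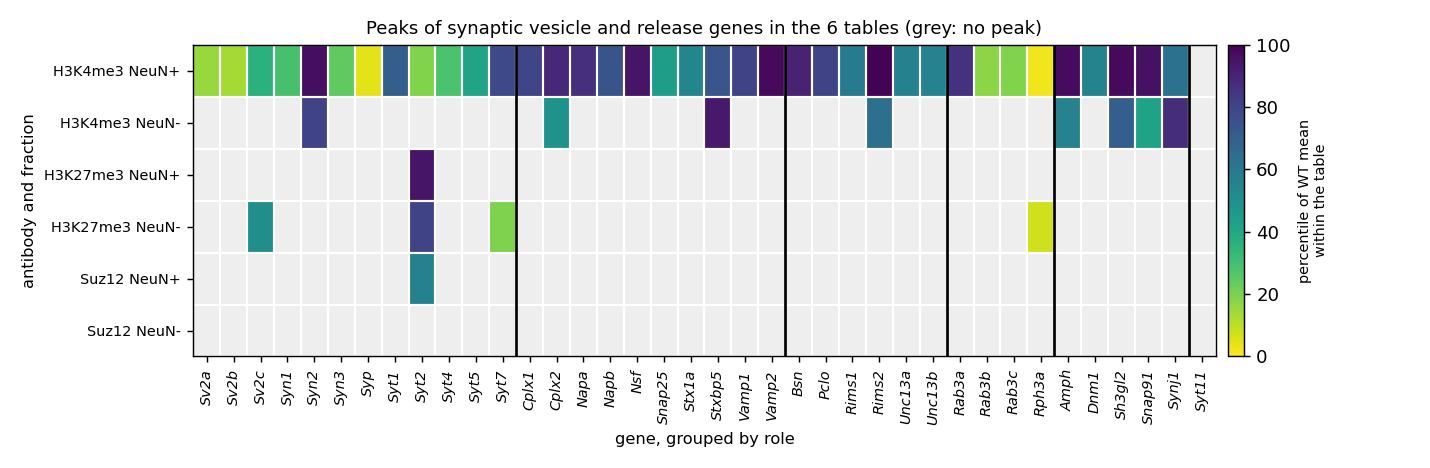
Presence of a peak at each of the 38 genes (columns, grouped by role) in the 6 tables (rows), coloured by the percentile of the highest member peak's WT mean among all peaks of that table, with grey where there is no peak. The top row is filled for 37 genes, and Syt2 is the only gene with a peak in 4 of the 6 rows.

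Among genes with an H3K4me3 peak in NeuN+ nuclei, 8 of the 37 members (21.6%) also had one in NeuN- nuclei, against 3009 of all 11512 genes (26.1%). For H3K27me3 in NeuN+ nuclei, the same comparison gave 1 of 37 members (2.70%) against 900 of 11512 genes (7.82%). It gave 4 of 37 (10.8%) against 677 (5.88%) for H3K27me3 in NeuN- nuclei, a higher share in members, and 1 of 37 (2.70%) against 296 (2.57%) for Suz12 in NeuN+ nuclei, near that of all genes. For Suz12 in NeuN- nuclei it gave 0 of 37 against 97 (0.843%). These shares describe the lists, and no test was run on them.

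Of the 43 neuronal H3K4me3 member peaks, 40 lay within 1 kb of an annotated start. The other three were at an exon of Rims1 (exon 8 of 32), in an intron of Nsf (intron 2 of 4) and in intergenic sequence upstream of Snap25. Over the 40 promoter peaks, the WT mean had a median of 25.8 and ran from 6.39 to 43.5, against a median of 24.1 over all 11651 promoter peaks. In 41 of the 43 peaks every library had at least 1 read. The CV over the 12 libraries had a median of 36.5% and ran from 20.6% (Sh3gl2) to 57.1% (Rph3a).

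**Figure D2:**
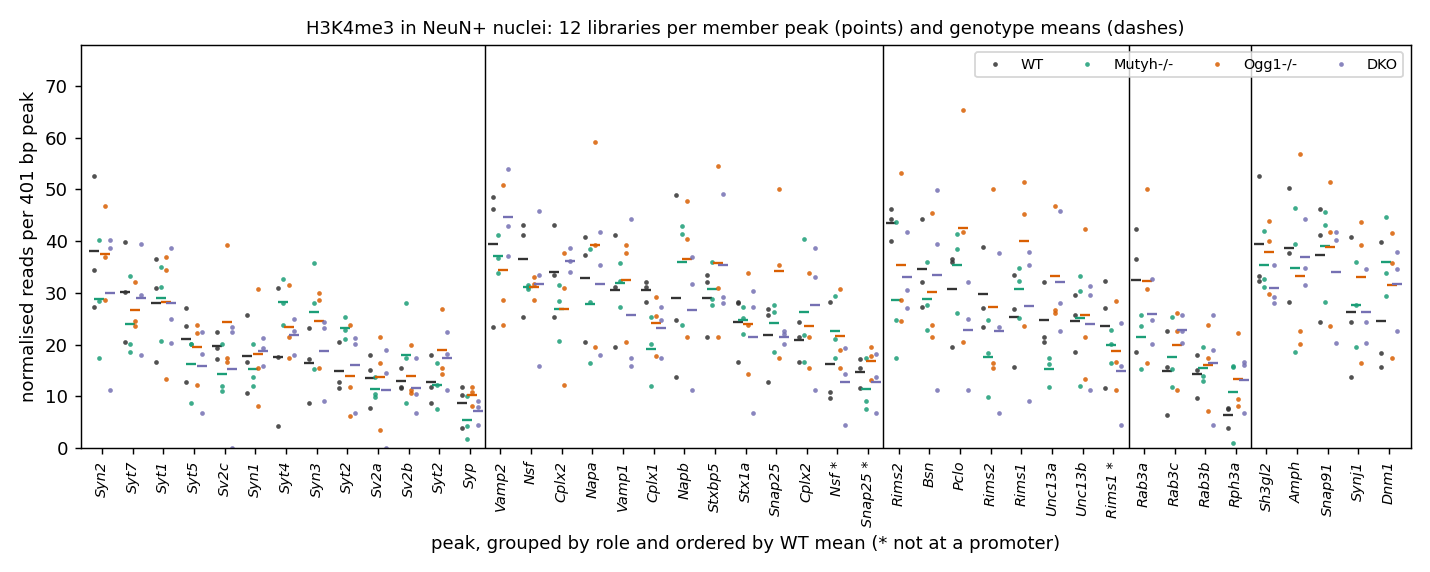
Normalised H3K4me3 reads per member peak in NeuN+ nuclei, with 1 point per library (3 per genotype), dashes for genotype means, and peaks grouped by role and ordered by WT mean. Points of the 4 genotypes overlap at nearly every peak, and levels run from a WT mean of 6.39 at Rph3a to 43.5 at Rims2.

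Vesicle proteins and calcium sensors had the widest range of neuronal H3K4me3, with peaks at 12 of 13 genes and a median WT mean of 17.6 over 13 promoter peaks. Syn2, a synapsin that tethers vesicles to actin and to each other, had the highest level of this group, with 52.7, 27.3 and 34.5 in WT, 17.4, 28.5 and 40.3 in Mutyh-/-, 28.6, 36.9 and 46.9 in Ogg1-/-, and 11.3, 38.6 and 40.2 in DKO. Syp, the abundant vesicle protein synaptophysin, had the lowest, with 10.3, 3.9 and 11.8 in WT, 4.36, 10.1 and 1.75 in Mutyh-/-, 11.9, 8.21 and 10.8 in Ogg1-/-, and 9.02, 8.04 and 4.55 in DKO. All 3 WT libraries were higher at Syn2 than at Syp, and genotypes overlapped at both genes. Syp lies on chromosome X, of which male mice hold a single copy, and levels were not adjusted for copy number.

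SNARE genes and their regulators had peaks at all 10 genes, with a median WT mean of 30.6 over 11 promoter peaks. Vamp2, the vesicle SNARE of fast release, was highest, with 46.3, 23.4 and 48.5 in WT, 33.8, 36.8 and 41.2 in Mutyh-/-, 23.8, 28.7 and 50.8 in Ogg1-/-, and 42.9, 53.9 and 37.1 in DKO. The lowest was one of the pair of promoters of Cplx2, a complexin that clamps SNARE complexes, with 16.7, 24.4 and 21.5 in WT, 21.8, 40.4 and 16.6 in Mutyh-/-, 15.5, 21.5 and 33.8 in Ogg1-/-, and 11.3, 33 and 38.7 in DKO. The WT libraries of these peaks overlapped, and so did the genotypes within each peak. The other Cplx2 promoter (chr13:54302942-54303342) had a WT mean of 34.0 ± 8.87 (SD, n = 3) and also carried H3K4me3 in NeuN- nuclei, while the lower one (chr13:54371782-54372182; 20.9 ± 3.88, SD, n = 3) had no NeuN- peak.

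Active zone and priming genes had peaks at all 6 genes, with a median WT mean of 29.7 over 7 promoter peaks. Rims2, a scaffold that links Rab3 to calcium channels, had the highest level of all members at its upstream start, with 46.3, 40 and 44.2 in WT, 17.4, 24.8 and 43.8 in Mutyh-/-, 28.6, 24.6 and 53.1 in Ogg1-/-, and 27.1, 30.6 and 41.7 in DKO. Unc13b, a Munc13 priming factor, was lowest, with 29.6, 18.5 and 25.8 in WT, 12, 30.3 and 33.3 in Mutyh-/-, 21.4, 13.3 and 42.3 in Ogg1-/-, and 11.3, 31.4 and 29.6 in DKO. The WT libraries of Rims2 lay above those of Unc13b, whereas the knockout libraries of both peaks spread over much of the scale.

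Rab3 genes and their effector had peaks at all 4 genes and the lowest group median, 14.6. Rab3a, the main vesicle Rab GTPase of the forebrain, had 42.4, 18.5 and 36.6 in WT, 15.3, 25.7 and 23.7 in Mutyh-/-, 50, 16.4 and 30.8 in Ogg1-/-, and 24.8, 20.1 and 32.6 in DKO. Rph3a, the Rab3 effector rabphilin, had 7.72, 3.9 and 7.54 in WT, 1.09, 15.6 and 15.8 in Mutyh-/-, 9.52, 8.21 and 22.3 in Ogg1-/-, and 6.77, 16.1 and 16.7 in DKO. Every WT library was lower at Rph3a than at Rab3a, and Ogg1-/- libraries of Rph3a all lay above the WT ones.

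Endocytosis genes had peaks at all 5 genes and the highest group median, 37.3. Sh3gl2 (endophilin A1, which bends membrane at the forming vesicle) had 52.7, 33.2 and 32.3 in WT, 32.7, 31.2 and 42 in Mutyh-/-, 44, 29.7 and 40 in Ogg1-/-, and 29.3, 35.4 and 28 in DKO. Dnm1, the dynamin that cuts the vesicle neck, had 39.9, 15.6 and 18.3 in WT, 33.8, 29.4 and 44.7 in Mutyh-/-, 35.7, 17.4 and 41.5 in Ogg1-/-, and 22.6, 34.6 and 37.9 in DKO. The WT libraries of the highest and the lowest gene of this group overlapped.

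Member promoters were poorer in CG dinucleotides than promoters at large. The median was 6.73 CG per 100 bp of the window over the 40 member promoter peaks and 8.73 over all 11651, at a GC content of 66.2% and 67.1%. Of the member windows, 10 (25%) held under 5 CG per 100 bp, against 15.2% of all windows, and 9 (22.5%) held 10 or more, against 36.0%. Within the members, the level rose with CG content: Spearman's rho between CG per 100 bp and the WT mean was 0.54 over the 40 windows, beside 0.38 over all promoter windows. The points share the same 3 libraries and the base composition of 1 genome, so rho is given as a description. Sv2a (1.00 CG per 100 bp), Rph3a (1.5), Syn3 (2.99), Syt4 and Sv2b (3.49 each) and Syp (3.74) had the fewest CG and WT means of 6.39 to 17.6. Syp and Syn1 (9.98 CG per 100 bp, WT mean 17.8) lie on chromosome X, so their levels come from a single copy in these male mice. Both Syt2 promoters stood apart, with 12.0 and 8.98 CG per 100 bp at WT means of 12.9 and 14.9.

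**Figure D3:**
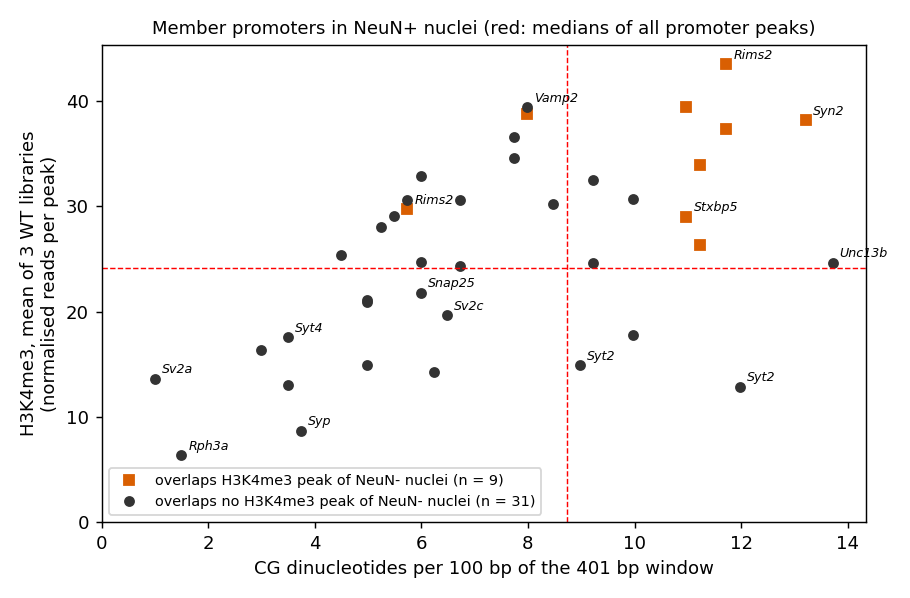
H3K4me3 level (mean of 3 WT libraries, normalised reads per peak) against CG content of the window for the 40 member promoter peaks of NeuN+ nuclei, with squares for the 9 that overlap an H3K4me3 peak of NeuN- nuclei and dashed lines for the medians of all promoter peaks. Of the 9 squares, 7 lie to the right of the median CG content of 8.73 per 100 bp and all lie above the median level of 24.1.

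Short motifs were searched on both strands of the promoter windows of H3K4me3 in NeuN+ nuclei, and none of the motifs contains another. The core of the RE1 element, bound by the repressor REST that keeps neuronal genes off outside neurons, was searched as CAGCACC, any 2 bases and GGACAG. It was found in 2 of the 40 member windows (5%), against 14 of all 11651 (0.120%). The cAMP response element TGACGTCA and the NRF1 core GCGCATGC were in 0 of these member windows each, against 1.3% and 2.00% of all windows. Among the H3K4me3 promoter windows of NeuN- nuclei, TGACGTCA was in 1 of 9 member windows (11.1%, Sh3gl2), against 1.32% of all. The Stxbp5 stretch shown above holds the NRF1 core, but outside its H3K4me3 windows. The GC box GGGCGG was in 22 member windows (55%), against 69.5%, and the TATA box TATAAA in 1 (2.5%, Sv2b), against 3.12%. The RE1 core was in the windows of Snap25, with 2 matches, and Syt4, with 1. In windows that reached 1 kb to either side of the same peak centres, a length chosen after these results were seen, Syp joined them (3 of 40, 7.5%, against 0.481% of all windows). The stretches of Snap25 and Syp are shown because they hold these matches. None of the 3 promoters overlapped a NeuN- H3K4me3 peak, as was so for 77.5% of member promoters and 75.3% of all promoters. Capitals mark the core, and both read on the plus strand, which is the strand of the genes.
Snap25 (chr2:136714275-136714369, intron 1): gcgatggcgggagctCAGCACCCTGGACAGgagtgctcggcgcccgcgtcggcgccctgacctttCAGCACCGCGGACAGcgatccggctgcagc
Syp (chrX:7638719-7638773, just past exon 1 of the main transcript and inside a coding first exon of another in GENCODE): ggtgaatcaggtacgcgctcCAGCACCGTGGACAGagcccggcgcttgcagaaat
The Snap25 matches lie 111 and 161 bp from the centre of its H3K4me3 window in the direction of transcription, and the Syp match lies upstream of its window. A match is a string of letters and no binding was measured here.

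H3K4me3 in NeuN- nuclei was found at 8 members. They were 4 of 5 endocytosis genes (Amph, Sh3gl2, Snap91 and Synj1), 2 of 10 SNARE genes and regulators (Cplx2 and Stxbp5), 1 of 6 active zone genes (Rims2, at both starts), 1 of 13 vesicle proteins (Syn2) and 0 of 4 Rab3 genes and effectors. All 9 peaks lay within 1 kb of a start, and each overlapped the neuronal H3K4me3 peak of the same start. The 9 shared neuronal windows had a median of 11.2 CG per 100 bp and a median WT mean of 37.3, against 5.99 and 24.3 over the 31 not shared. Over all promoter peaks, the 2873 shared ones had 10.7 and 29.2, and the 8778 others 8.23 and 22.2. The share of overlapping promoters was 22.5% for members and 24.7% for all.

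Levels of these peaks rested on few reads, 0 to 34 per library, and the CV over the 12 libraries was 43.0% to 85.9%. Stxbp5 (tomosyn, an inhibitor of SNARE assembly) had the highest WT mean, with 18, 11.8 and 14.2 in WT, 14.3, 17.3 and 17.9 in Mutyh-/-, 11.9, 3.19 and 19.9 in Ogg1-/-, and 23.2, 8.58 and 5.59 in DKO. Synj1 (synaptojanin, a lipid phosphatase of uncoating) had 16.6, 14.2 and 8.27 in WT, 20, 18.1 and 9.75 in Mutyh-/-, 13.9, 9.58 and 4.26 in Ogg1-/-, and 22.3, 10.7 and 1.12 in DKO. Syn2 had 8.3, 21.3 and 5.91 in WT, 14.3, 1.73 and 8.13 in Mutyh-/-, 11.9, 3.19 and 15.6 in Ogg1-/-, and 6.5, 12.2 and 11.2 in DKO. At all 3 genes each genotype overlapped WT.

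Sh3gl2 had 8.3, 13.4 and 10.6 in WT, 18.1, 9.51 and 21.1 in Mutyh-/-, 23.8, 11.2 and 17 in Ogg1-/-, and 21.4, 2.14 and 10.1 in DKO. Amph (amphiphysin, which recruits dynamin) had 20.7, 2.36 and 4.73 in WT, 32.3, 9.51 and 8.13 in Mutyh-/-, 6.93, 5.59 and 2.84 in Ogg1-/-, and 18.6, 6.43 and 6.7 in DKO. Snap91 (AP180, a clathrin adaptor) had 6.91, 7.88 and 9.45 in WT, 11.4, 12.1 and 4.88 in Mutyh-/-, 16.8, 13.6 and 5.68 in Ogg1-/-, and 24.1, 2.86 and 7.82 in DKO. At Amph and Snap91 the highest DKO library was replicate 1, as at Stxbp5, Synj1 and Sh3gl2. The whole table showed the same: the median over all promoter peaks was 15.8, 5.72 and 6.7 in the DKO libraries. It was also highest in replicate 1 of WT (11.1), Mutyh-/- (14.3) and Ogg1-/- (14.8). Cplx2 had 13.8, 8.67 and 3.55 in WT, 17.1, 10.4 and 6.5 in Mutyh-/-, 14.8, 16.8 and 8.52 in Ogg1-/-, and 11.1, 0.715 and 11.2 in DKO. The upstream start of Rims2 had 16.6, 6.3 and 7.09 in WT, 19, 3.46 and 4.88 in Mutyh-/-, 11.9, 10.4 and 11.4 in Ogg1-/-, and 21.4, 5 and 1.12 in DKO. Its downstream start had 9.68, 12.6 and 4.73 in WT, 12.4, 0.864 and 9.75 in Mutyh-/-, 9.9, 3.19 and 4.26 in Ogg1-/-, and 17.6, 4.29 and 0 in DKO. For 0 of the 27 tests of a member peak in a knockout did the groups not overlap, against a background of 7.51% of all peaks.

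Each knockout was set against WT to find marks that changed without the glycosylase. A peak counted as a differentially enriched region (DER) where the unadjusted limma p was under 0.05 and the log2 fold change exceeded 0.5 in size. In H3K4me3 NeuN+, 0 of the 129 tests of a member peak in a knockout gave a DER, where 1.11% of all tests of the table did (0.911% in Mutyh-/-, 0.966% in Ogg1-/- and 1.46% in DKO). With limma, 0 had an unadjusted p under 0.05 and the smallest adjusted p was 1.00. On recovered reads, edgeR gave 5 member DERs with TMM factors and 0 with the authors' factors, DESeq2 gave 2, and all of these had an adjusted p of 0.999 or more. Over all peaks, edgeR with TMM factors called 506, 501 and 490 of 12628 in Mutyh-/-, Ogg1-/- and DKO, more than limma did. With the authors' factors it called 119, 147 and 101. The share for DESeq2 is not given here. The member median log2 fold change was -0.07, 0.06 and -0.10 in Mutyh-/-, Ogg1-/- and DKO, beside -0.07, 0.08 and -0.02 over all peaks. Fold changes above 0 were found at 20, 23 and 15 of the 43 member peaks (46.5%, 53.5% and 34.9%), beside 42.3%, 58.7% and 47.8% of all peaks.

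**Figure D4:**
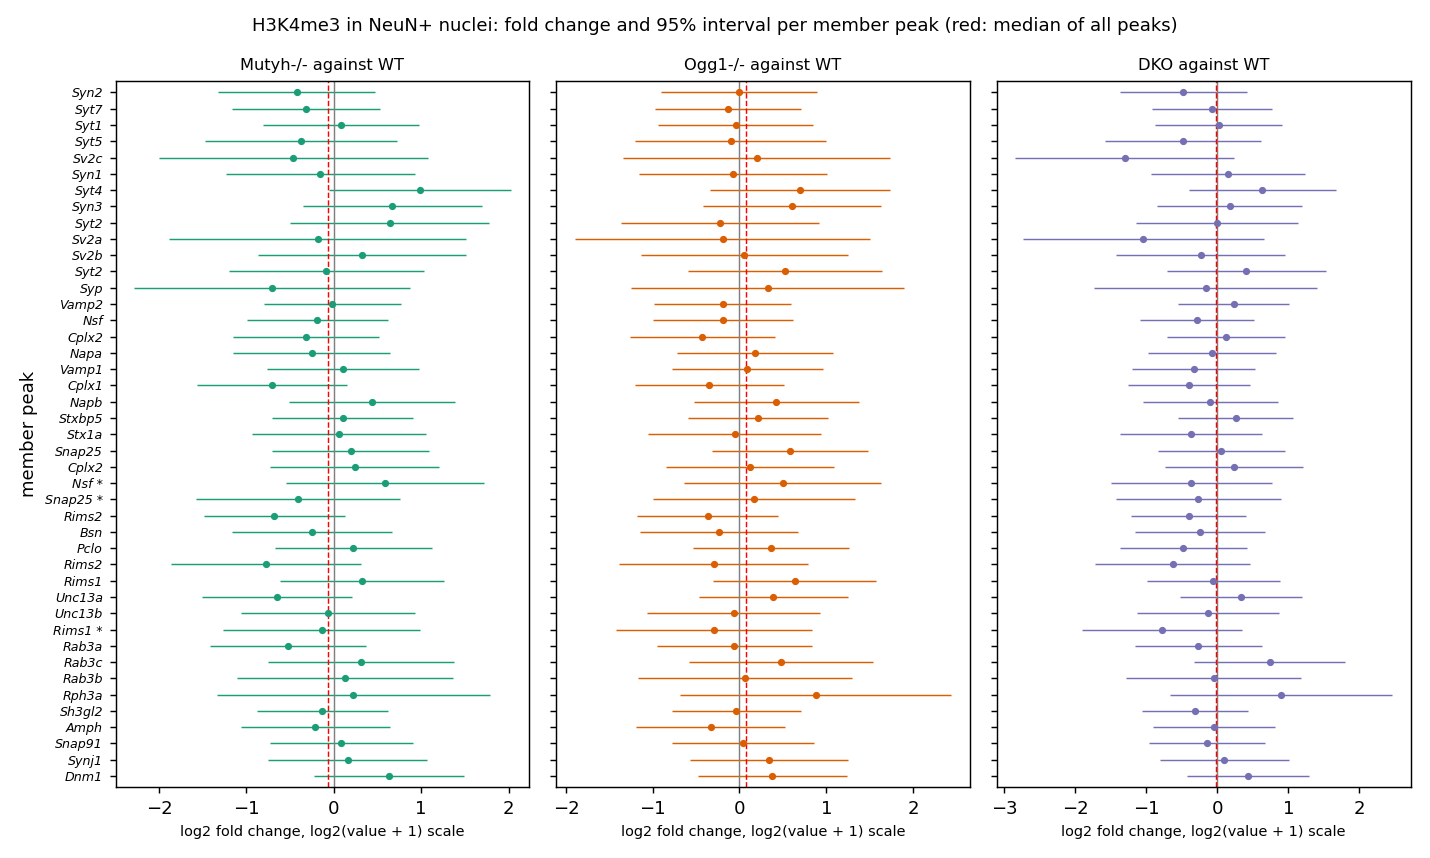
Log2 fold change (points, log2(value + 1) scale) and 95% interval (lines) of each of the 43 H3K4me3 member peaks of NeuN+ nuclei in the 3 knockouts against WT, with the median of all peaks as a red dashed line. Every interval crosses 0.

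The intervals bound what these libraries could show. The 95% interval of a member peak reached a median of 0.94 to either side on the log2 scale, so that a log2 change of 1 in size could be missed at most peaks. It lay within -1 and 1 at 7 peaks for Mutyh-/-, 9 for Ogg1-/- and 8 for DKO. The smallest p was 0.0620 at Syt4, a synaptotagmin that does not sense calcium. It had 30.9, 17.6 and 4.31 in WT, 32.7, 23.9 and 28 in Mutyh-/-, 21.4, 17.4 and 31.5 in Ogg1-/-, and 18, 24.9 and 22.7 in DKO. Its log2 fold change in Mutyh-/- was 0.98 (SE 0.51, limma adjusted p 1.00), the groups overlapped, and 1 WT library was low.

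Groups did not overlap in 5 of the 129 tests (3.88%), against a background of 4.83%. Cplx1, a complexin of fast release, had 32.2, 28.3 and 31.2 in WT, 12, 20.2 and 25.4 in Mutyh-/-, and 24.8, 27.3 and 17.4 in DKO. It was lower than every WT library in both genotypes, which share the WT libraries, with log2 fold changes of -0.70 (SE 0.42, limma p 0.106) and -0.40 (SE 0.42, limma p 0.344). Unc13a, the main Munc13 of hippocampal synapses, had 32.2, 20.5 and 21.5 in WT and 16.3, 11.9 and 17.5 in Mutyh-/-. Its log2 fold change was -0.65 (SE 0.42, limma p 0.133). The second start of Syt2 had 11.6, 12.7 and 20.5 in WT and 22.9, 21.1 and 25.4 in Mutyh-/-, a log2 fold change of 0.64 (SE 0.56, limma p 0.263). Rph3a in Ogg1-/-, given above, had 0.88 (SE 0.77, limma p 0.262). All of these had a limma adjusted p of 1.00.

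Per library, the members followed the promoters of the whole table. The median of the 40 member promoter peaks was 31.5, 18.5 and 26.9 in the WT libraries, beside 27, 17.6 and 25.8 over all promoter peaks. It was 19.1, 25.3 and 28.5 in Mutyh-/- beside 17.4, 22.1 and 27.2, and 25, 17.4 and 37.3 in Ogg1-/- beside 25, 16.4 and 33.8. In DKO it was 15.8, 31.8 and 28 beside 15.8, 27.3 and 25.8. The lowest value belonged to DKO replicate 1 and the highest to Ogg1-/- replicate 3, the shallowest and the deepest library. Member peaks took 0.306% (DKO replicate 1) to 0.388% of the reads in peaks.

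By role, the median log2 fold changes of neuronal H3K4me3 in Mutyh-/-, Ogg1-/- and DKO were -0.15, -0.002 and -0.07 over the 13 peaks of vesicle proteins and 0.06, 0.12 and -0.10 over the 13 of SNARE genes. They were -0.20, -0.15 and -0.33 over the 8 of the active zone, 0.18, 0.27 and 0.34 over the 4 of Rab3 genes and rabphilin and 0.08, 0.04 and -0.04 over the 5 of endocytosis genes. The 8 active zone peaks lay above 0 at 2, 3 and 1 peaks in the 3 knockouts, beside the shares of all peaks given above, and 0 of their tests gave a DER.

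In H3K4me3 NeuN-, 0 of 27 member tests gave a DER, where 2.86% of all tests of the table did (2.94%, 3.36% and 2.29% in Mutyh-/-, Ogg1-/- and DKO), and 0 had an adjusted p under 0.05, against 0.0714%. With limma, 0 had an unadjusted p under 0.05, and edgeR and DESeq2 gave 0 member DERs. The smallest limma p was 0.252 (Amph in Mutyh-/-, log2 fold change 0.98, SE 0.85). The member medians were 0.17, -0.22 and -0.42 in Mutyh-/-, Ogg1-/- and DKO, beside 0.22, 0.25 and 0.05 over all peaks. The 95% intervals reached a median of 1.62 to either side.

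Syt2 was the only member with Polycomb marks in neurons. It encodes synaptotagmin 2, a fast calcium sensor best known from hindbrain and spinal synapses and from some interneurons. At its upstream start on chromosome 1, the H3K4me3 window (134646392 to 134646792), the Suz12 window (134646694 to 134647094) and the H3K27me3 window (134646702 to 134647102) of NeuN+ nuclei overlapped, and so did the H3K27me3 window of NeuN- nuclei (134646467 to 134646867). Overlap with a neuronal H3K27me3 peak was found for 1 of the 40 member promoter peaks (2.5%) and for 128 of all 11651 (1.10%), and overlap with Suz12 for 1 (2.5%) and 141 (1.21%). Since nuclei were measured in bulk, marks on the same chromosomes and marks in different cells cannot be told apart.

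The H3K4me3 level of this start was low among members, with 18, 8.78 and 11.8 in WT, 7.63, 16.5 and 12.3 in Mutyh-/-, 15.5, 14.4 and 26.9 in Ogg1-/-, and 11.3, 22.5 and 18.2 in DKO. Its H3K27me3 level was at the 94.3 percentile of the WT means of its table, and at the 82.8 percentile among promoter peaks. It had 14.2, 11.1 and 13.8 in WT, 1.01, 11.1 and 5.99 in Mutyh-/-, 9.91, 10.5 and 16.4 in Ogg1-/-, and 5.46, 14.5 and 20.9 in DKO. The 3 Mutyh-/- libraries all lay below the WT ones, replicate 2 by less than the rounding shown, whereas Ogg1-/- and DKO overlapped WT. The log2 fold change of H3K27me3 in Mutyh-/- was -1.33 (SE 0.74, limma p 0.0700, adjusted p 0.998), beside a median of -0.21 over all peaks of the table, where 3.65% of tests gave a DER (3.78%, 3.82% and 3.36% in Mutyh-/-, Ogg1-/- and DKO), 0.0565% had an adjusted p under 0.05 and 9.13% had groups that do not overlap. It was -0.11 in Ogg1-/- and -0.10 in DKO (SE 0.74 each). The H3K4me3 log2 fold changes at the same start were -0.08, 0.52 and 0.40 in Mutyh-/-, Ogg1-/- and DKO (SE 0.55).

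Suz12 at Syt2 split by replicate number rather than by genotype. It had 4.02, 14.9 and 20.1 in WT, 4.1, 17.6 and 17.2 in Mutyh-/-, 0, 15.3 and 14.1 in Ogg1-/-, and 0.85, 13.6 and 13.4 in DKO. The WT mean was at the 56 percentile of its table, and at the 44.6 percentile among promoter peaks. Replicate 1 of each genotype had 0 to 4.1, and the other 8 libraries had 13.4 to 20.1, with no overlap. The 4 libraries numbered 1 had 6652 to 18176 reads in peaks and a median of 2.46 to 7.38 normalised reads over non-repeat peaks of the table, against 13044 to 33035 reads and a median of 8.46 to 16.8 in the other 8, and the part of this in the Syt2 values was not tested. The log2 fold changes of Suz12 were 0.01, -0.92 and -0.71 in Mutyh-/-, Ogg1-/- and DKO (SE 1.14 each, limma p 0.991, 0.417 and 0.535), beside medians of -0.63, -0.57 and -0.06 over all peaks. Of the 3 tests 0 gave a DER, where 3.83% of all tests of the table did (5.16%, 3.74% and 2.58%), and 0 had an adjusted p under 0.05 or groups that do not overlap, against 0.043% and 7.18%.

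**Figure D5:**
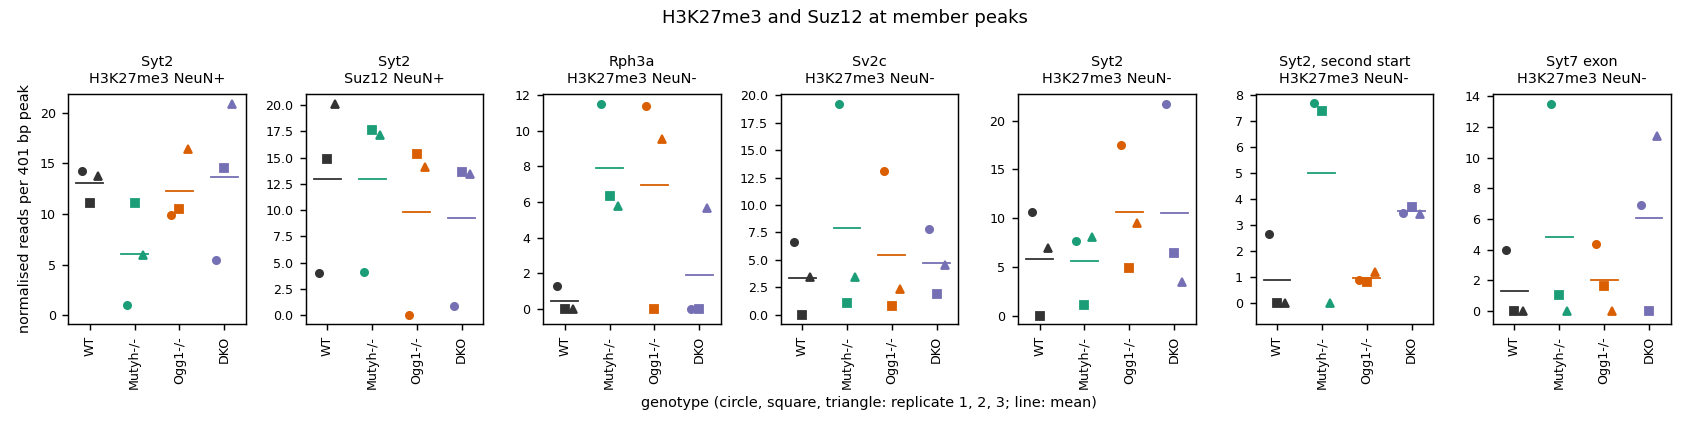
Normalised reads at the 7 member peaks of the H3K27me3 and Suz12 tables by genotype, with circles, squares and triangles for replicates 1, 2 and 3 and lines for genotype means. Suz12 at Syt2 is low in replicate 1 of all 4 genotypes (0 to 4.1), and H3K27me3 at Rph3a in NeuN- nuclei is at 0 in 5 of the 12 libraries.

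In NeuN- nuclei, H3K27me3 was found at 4 members: at both starts of Syt2, at Sv2c (a vesicle glycoprotein with a restricted pattern in the brain), at an exon of Syt7 (exon 3 of 5; a slow calcium sensor) and near Rph3a. The upstream Syt2 start had 10.6, 0 and 6.92 in WT, 7.69, 1.06 and 8.09 in Mutyh-/-, 17.5, 4.9 and 9.54 in Ogg1-/-, and 21.7, 6.47 and 3.41 in DKO. Sv2c had 6.62, 0 and 3.46 in WT, 19.2, 1.06 and 3.47 in Mutyh-/-, 13.1, 0.817 and 2.38 in Ogg1-/-, and 7.8, 1.85 and 4.54 in DKO. At both promoters replicate 2 of WT had 0 reads, and no knockout stood apart from WT.

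The peak upstream of the second Syt2 start had 2.65, 0 and 0 in WT, 7.69, 7.39 and 0 in Mutyh-/-, 0.877, 0.817 and 1.19 in Ogg1-/-, and 3.47, 3.7 and 3.41 in DKO. The 3 DKO libraries all lay above WT, on 3 or 4 reads each (log2 fold change 1.55, SE 1.12, limma p 0.165). Syt7 had 3.97, 0 and 0 in WT, 13.5, 1.06 and 0 in Mutyh-/-, 4.38, 1.63 and 0 in Ogg1-/-, and 6.94, 0 and 11.4 in DKO, and every knockout overlapped WT. All 5 peaks had log2 fold changes above 0 in all 3 knockouts, which share the WT libraries, with medians of 0.86, 0.50 and 1.01. Over all peaks of the table the medians were 0.29, 0.58 and 0.41, and 61.2%, 73.5% and 67.4% of peaks lay above 0.

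Rph3a held the single DER among all member tests. The H3K27me3 peak (chr5:121006550-121006950, annotated as promoter, 1592 bp inside the annotated start, 0.499 CG per 100 bp) had 1.32, 0 and 0 in WT, 11.5, 6.34 and 5.78 in Mutyh-/-, 11.4, 0 and 9.54 in Ogg1-/-, and 0, 0 and 5.68 in DKO. In reads these were 1, 0 and 0 in WT and 12, 6 and 5 in Mutyh-/-, so the 3 Mutyh-/- libraries all lay above WT, while Ogg1-/- and DKO overlapped it. The log2 fold change in Mutyh-/- was 2.69 (SE 1.15, limma p 0.0196), with an adjusted p of 0.998. With 1 WT read in all, the ratio of scaled reads was 22.8, with a 95% interval of 3.70 to 939 that covers counting error only. The study kept peaks found in at least 2 of 3 replicates, so this peak may have entered the table through knockout libraries, where it was high. The p, the interval and the lack of overlap do not account for such a choice. The same may hold for the peaks at Syt7 and near the second Syt2 start, with WT reads in replicate 1 alone. Rph3a was 1 DER of 15 member tests, against 2.83% of all tests of the table (2%, 4.18% and 2.3% in Mutyh-/-, Ogg1-/- and DKO), and 2 of 15 with groups that do not overlap against 7.71%. The call was lost without WT replicate 2, without WT replicate 3 and without Mutyh-/- replicate 1. This peak does not overlap the neuronal H3K4me3 peak of Rph3a, and a single peak that passes at an unadjusted p does not hold over the 1698 peaks tested.

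The 2 by 2 layout of the genotypes allows a test of whether the DKO differs from the sum of the single knockouts. At an adjusted p under 0.05, limma called 0 of the 59 member peaks, against 4 of 4132 peaks (0.0968%) in H3K27me3 NeuN+ and 0 peaks elsewhere. Without adjustment it called 1 member, Rph3a H3K27me3 in NeuN- nuclei (-4.12, SE 1.63, limma p 0.0115, adjusted p 1.00), where 2.47% of all peaks of that table were called. That peak had 1 WT read in all and may have entered the table through knockout libraries, which this p does not account for either. The shares of all peaks were 0.839% in H3K4me3 NeuN+, 3.03% in H3K4me3 NeuN-, 3.92% in H3K27me3 NeuN+ and 5.16% in Suz12 NeuN+. Alternatives called 0 members at an adjusted p under 0.05, edgeR and DESeq2 included.

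Whether a genotype acted differently in neurons and other cells was tested at the 10 member peaks that overlapped one to one between the fractions, 9 of H3K4me3 and the upstream Syt2 start for H3K27me3. Of these 30 tests, limma called 0 at an adjusted p under 0.05, as it did for all peaks shared between fractions, and 0 at an unadjusted p under 0.05, where 1.97% of H3K4me3 and 1.74% of H3K27me3 tests were called. The smallest p was 0.195, for Amph H3K4me3 in Mutyh-/-, where the difference of log2 fold changes, NeuN+ less NeuN-, was -1.19 (SE 0.90). It became -1.96 (limma p 0.0341, adjusted p 0.998) without WT replicate 1 of NeuN- nuclei. The study collected both fractions in its sort, so libraries of the fractions may come from the same pools, and the main fit did not pair them.

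A further 68 genes of the vesicle cycle, among them other synaptotagmins, transporters and clathrin genes, were described in the same way. Of these, 53 had a neuronal H3K4me3 peak (57 peaks), 11 had one in NeuN- nuclei, 3 had neuronal H3K27me3, 8 had H3K27me3 in NeuN- nuclei and 3 had neuronal Suz12. DERs numbered 1 of 171 tests in H3K4me3 NeuN+, 1 of 24 in H3K27me3 NeuN+ and 2 of 9 in Suz12 NeuN+, where 1.11%, 3.65% and 3.83% of all tests gave one, and 0 in the other tables. They were all lower in a knockout, with limma adjusted p of 0.916 or more. The peaks were Cltc H3K4me3 in DKO (clathrin heavy chain; log2 fold change -1.60, SE 0.73), Syt9 H3K27me3 in Mutyh-/- (-2.71, SE 1.03), and Suz12 in Mutyh-/- at Syt6 (-2.44, SE 1.21) and at Slc18a3, the vesicular acetylcholine transporter (-2.01, SE 1.02). Both Suz12 DERs were in Mutyh-/-, where 5.16% of peaks were called and the median over all peaks was -0.63. The groups overlapped at Cltc, whose lowest DKO library (replicate 1) was at 0, and at Slc18a3, with 0, 30.0 and 2.03 in Mutyh-/- against 16.1, 29.7 and 10.7 in WT. They did not overlap at Syt9 and Syt6.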

How the data were processed

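The authors aligned reads to GRCm38 (mm10) with Bowtie2 2.3.5.1, called regions with epic2, counted reads over consensus peaks with DiffBind 3.10.1 and annotated peaks with ChIPseeker 1.36. The deposited values are signal: the reads of a peak over a scaling factor per library. In every library 100% of values were whole multiples of 1 step within 0.001, so whole reads were recovered as value divided by step, taking the step as 1 read. In 5 libraries the step lay within 1.2% of 1, and there a step of 1 left at most 5.83% of the values above 0 whole. The handling of duplicates and of input in the values was not given in the sources used here, and 24 input libraries were not used here. All 72 antibody columns were mapped to samples by name.

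limma-trend (version 3.58.1, R 4.3.3) was fitted on log2(value + 1) over all peaks of a table, with 12 libraries in 1 fit and genotype as the only term. This scale understates changes at low values. Adjusted p is the Benjamini-Hochberg value over all peaks of a table within a contrast. The prior degrees of freedom were infinite in the H3K27me3 and Suz12 tables, so p there rests on a spread shared by all peaks. Fraction differences used 24 libraries per antibody. Alternatives were a pseudocount of 0.5, a low-value filter, robust moderation, TMM scaling, edgeR 4.0.16 and DESeq2 1.42.0 on recovered reads, a replicate block, leaving out each library, and promoter peaks alone. The limma fit was tested on simulated reads of H3K4me3 NeuN+ alone, with changes set in Mutyh-/-. The other tables, edgeR, DESeq2, the block and the fraction contrast were not tested in this way.

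Members and lists were chosen with earlier results of these data known. Full values are given for member DERs, for all member peaks outside H3K4me3 NeuN+, and there for the highest and lowest promoter of each role. Other genes of the vesicle cycle are named where they were DERs, and Syt4, Cplx1, Unc13a and the other peaks named beyond this were chosen after their values were seen. Same-numbered WT and knockout libraries deviated together with correlations over 0.1 in all 3 pairs for Mutyh-/- in Suz12 NeuN+ alone (0.388, 0.186 and 0.119), and the labels' numbers were taken to pair libraries there.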

Additional observations from a re-analysis of the deposited data

How the results depend on the processing

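Recomputing the main results under the alternatives left 340 values the same and moved 18. A count was the same if it equalled the main count, and a median if it moved by less than the spread between replicates. The 340 include the counts of Suz12 NeuN-, which held 0 member peaks, so those could not move. Across tables and alternatives, 0 member peaks reached an adjusted p under 0.05, also in the non-additive contrast and between fractions. Counts of member DERs that moved were these. In H3K4me3 NeuN+ the 0 became 4 with TMM scaling in limma, 5 with edgeR and TMM factors and 2 with DESeq2: Syn3, Dnm1, Syt4 and Rims2 in Mutyh-/- and Rims1 in Ogg1-/-. The calls over all peaks of that table rose as well. TMM scaling in limma called 473, 481 and 699 of 12628 peaks in Mutyh-/-, Ogg1-/- and DKO, and edgeR with TMM factors called 506, 501 and 490. Leaving out 1 library gave 0 to 4, with 4 without WT replicate 1 (Syt4 in each knockout and Dnm1 in Mutyh-/-), 2 without DKO replicate 3 (Sv2c and Sv2a) and 1 without DKO replicate 2 (Sv2c), DKO replicate 1 (Syt4), Mutyh-/- replicate 3 (Rims2) or Ogg1-/- replicate 2 (Snap25). In H3K27me3 NeuN+ the 0 became 1 with the replicate block, at Syt2 in Mutyh-/- (log2 fold change -1.33, limma p 0.0397, adjusted p 0.812), and leaving out 1 library gave 0 to 1, with 1 without Mutyh-/- replicate 2. In that table the correlations of same-numbered WT and Mutyh-/- libraries were 0.0930, 0.0116 and 0.0190. The numbers were therefore not taken to pair libraries there, and whether same-numbered libraries share a batch was not tested. In H3K27me3 NeuN- the 1 DER (Rph3a in Mutyh-/-) became 2 with edgeR and the authors' factors and 0 over promoter peaks within 1 kb alone, and leaving out 1 library gave 0 to 2. It was 0 without WT replicate 2, WT replicate 3 or Mutyh-/- replicate 1, and 2 without Ogg1-/- replicate 2 or DKO replicate 2. The Rph3a fold change in Mutyh-/- was 2.69 to 4.06 over 8 alternatives, all called, with adjusted p of 0.732 to 1.00. For Suz12 at Syt2, where the numbers were taken to pair libraries for Mutyh-/-, the replicate block left the log2 fold change at 0.01 (limma p 0.985). With the block it was -0.92 in Ogg1-/- (limma p 0.192, adjusted p 0.562) and -0.71 in DKO (limma p 0.314, adjusted p 0.987), and neither was a DER. The block changed no other member call. The member median log2 fold changes of H3K4me3 NeuN+ moved by less than the spread between replicates (0.456) but crossed 0, with -0.25 to 0.15, -0.17 to 0.34 and -0.36 to 0.22 in the 3 knockouts when 1 library was left out. The cause of these moves was not tested. Depth limits the NeuN- and Polycomb peaks, where a library had 0 to 34 reads per member peak.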
